A study of Mus musculus with 6 samples.

Results

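The genes described here are 31 markers of fibroblasts and other stromal cells, measured in 6 RNA libraries from cultured spermatogonial stem cells of adult mice, the germline stem cells of the testis. They were taken by gene name from a list of mesenchymal genes, without the collagens and most other matrix genes, and all 31 were among the 41053 gene names counted. The study's 3 lines labelled Ephb2-KO came from cells electroporated with a plasmid carrying a GFP reporter together with a guide RNA against Ephb2, a receptor tyrosine kinase, and its 3 WT lines from cells given the plasmid without that guide. All 6 lines, guide or not, had thus passed through electroporation, sorting for GFP and subcloning, and were grown in a StemPro-34 medium with added growth factors. Replicates 1 and 2 of each genotype were at passage 20 and replicate 3 of each at passage 18, so passage and replicate number 3 cannot be told apart. A feeder layer is not described in the sources used here.

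Fibroblasts are the connective tissue cells that secrete collagen and small proteoglycans, carry platelet-derived growth factor (PDGF) receptors and rest on a vimentin cytoskeleton. Spermatogonial stem cells are commonly expanded on a layer of growth-arrested fibroblasts or stromal cells, called feeders, and RNA of such cells is read together with that of the germ cells unless they are removed. When fibroblasts turn into contractile myofibroblasts, or in smooth muscle and peritubular myoid cells, they add smooth muscle actin, calponin and transgelin. In a bulk library, fewer cells of a type and less RNA per cell cannot be told apart.

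Total counts were between 21772404 and 34047758 reads per library, and 3 counts corresponded to between 0.0803 and 0.147 CPM, in which each count is divided by a scaled library size. Germ cell markers were present in every library, with Dazl, an RNA-binding protein of germ cells, at 695 to 1381 CPM. Ephb2 itself had 37.0, 16.5 and 13.4 CPM in libraries labelled Ephb2-KO and 21.2, 27.1 and 10.8 CPM in WT libraries, with overlapping ranges (log2 fold change 0.18, SE 0.50, edgeR adjusted p = 1.0). A count per gene cannot tell a transcript with a small edit from an intact one, so the genotype is given as labelled. The labels do not say that lines of a group came from separate cultures, so p-values measure the spread between these libraries.

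Transcripts of these stromal markers were measured in all 6 libraries, and most of them were several times higher in the libraries of replicate number 3, at passage 18, in both genotypes. The 31 genes held 0.921% and 0.885% of all counted reads in the passage 18 libraries labelled Ephb2-KO and WT, against 0.188% and 0.278% in passage 20 libraries labelled Ephb2-KO and 0.171% and 0.224% in passage 20 WT libraries. The share at number 3 was 3.96 times the mean of numbers 1 and 2 in lines labelled Ephb2-KO and 4.49 times in WT lines. Between genotypes the shares were 0.462% ± 0.400 in libraries labelled Ephb2-KO and 0.427% ± 0.398 in WT libraries (SD, n = 3 each). Dcn held the most reads, with 0.220% and 0.228% of the passage 18 libraries labelled Ephb2-KO and WT, against 0.0208% to 0.0316% of the passage 20 libraries.

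**Figure D1:**
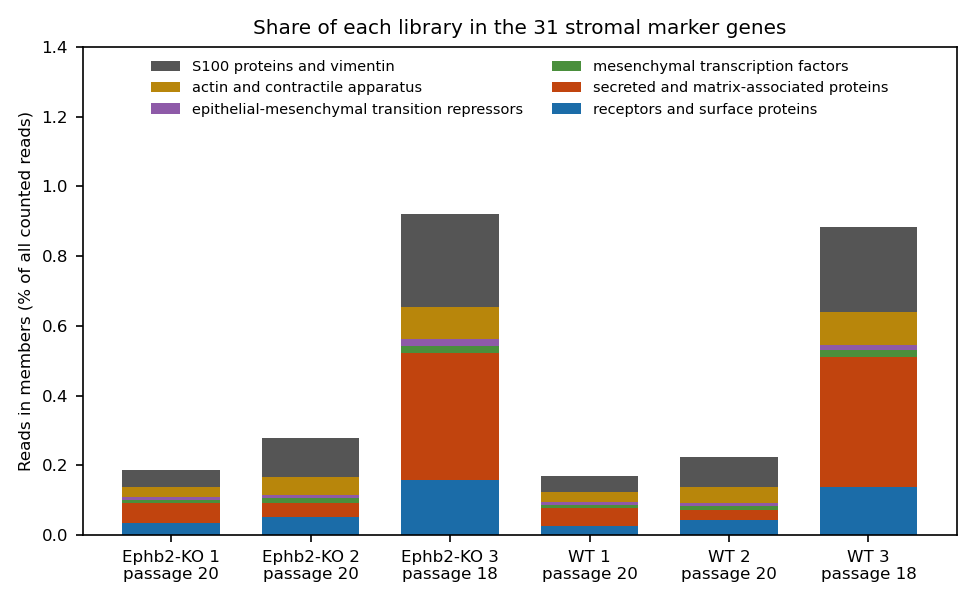
Stacked bars give the percent of all counted reads in the 31 genes for each library, split by role, with libraries labelled Ephb2-KO left of WT. The passage 18 libraries reach 0.921% and 0.885%, and the 4 passage 20 libraries lie between 0.171% and 0.278%.

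Of the 31 genes, 29 had a mean of at least 1 CPM, and the same 29 passed the filter on low counts. Tcf21, a transcription factor of stromal progenitors in several organs, had 0 counts in each of the 6 libraries, which allows at most 0.0803 to 0.147 CPM by counting error alone. Cnn1, the calponin of smooth muscle, had 2, 1 and 1 counts in libraries labelled Ephb2-KO 1, 2 and 3 and 7, 0 and 4 counts in WT libraries 1, 2 and 3. Per length of transcript, S100a6 was the highest member at a mean of 671 CPM per kb over the 6 libraries, above 99.7% of tested genes, followed by Dcn at 460.1, Vim at 311, S100a4 at 304 and Mgp at 272 CPM per kb. In the passage 20 libraries alone the order differed, with S100a6 at 236, Vim at 214, Dcn at 128, S100a4 at 111, Ly6a at 65.5 and Mgp at 61.1 CPM per kb. The lowest tested members per length were Fap at 0.468 and Zeb2 at 0.916 CPM per kb.

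Passage 18 was compared with passage 20 over all 15263 tested genes with genotype as a covariate (quasi-likelihood test of edgeR, threshold of 0.05 on p adjusted by Benjamini-Hochberg). Of the 29 tested members, 22 were called higher at passage 18 and 0 lower, where 15.4% of all tested genes were called higher and 10.4% lower. Below, "rose" and "fell" stand for called higher or lower in the passage 18 libraries. These are other lines than those at passage 20, and no line was followed over time. The median log2 fold change of the members was 2.22, against -0.06 over all tested genes. Both passage 18 libraries lay above all 4 passage 20 libraries for 23 members and below all 4 for 2 members (Snai1 and Myl9), beside 26.9% and 26.6% of all tested genes. A log2 fold change above 2 was reached by 17 of the 29 members and by 4.66% of all tested genes. The fit counted the libraries as independent, although same-numbered libraries deviated together, as given under the processing. Its p-values and intervals, here and below, therefore cannot measure the spread between replicate numbers at passage 18. The test rested on 2 passage 18 libraries of 1 replicate number. Leaving out that labelled Ephb2-KO left 10 members called and leaving out the WT one left 8, and Pdgfra, Cd34, Ly6a, Dcn, Lum, Postn, Tpm2 and S100a4 were called in all 13 settings run.

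**Figure D2:**
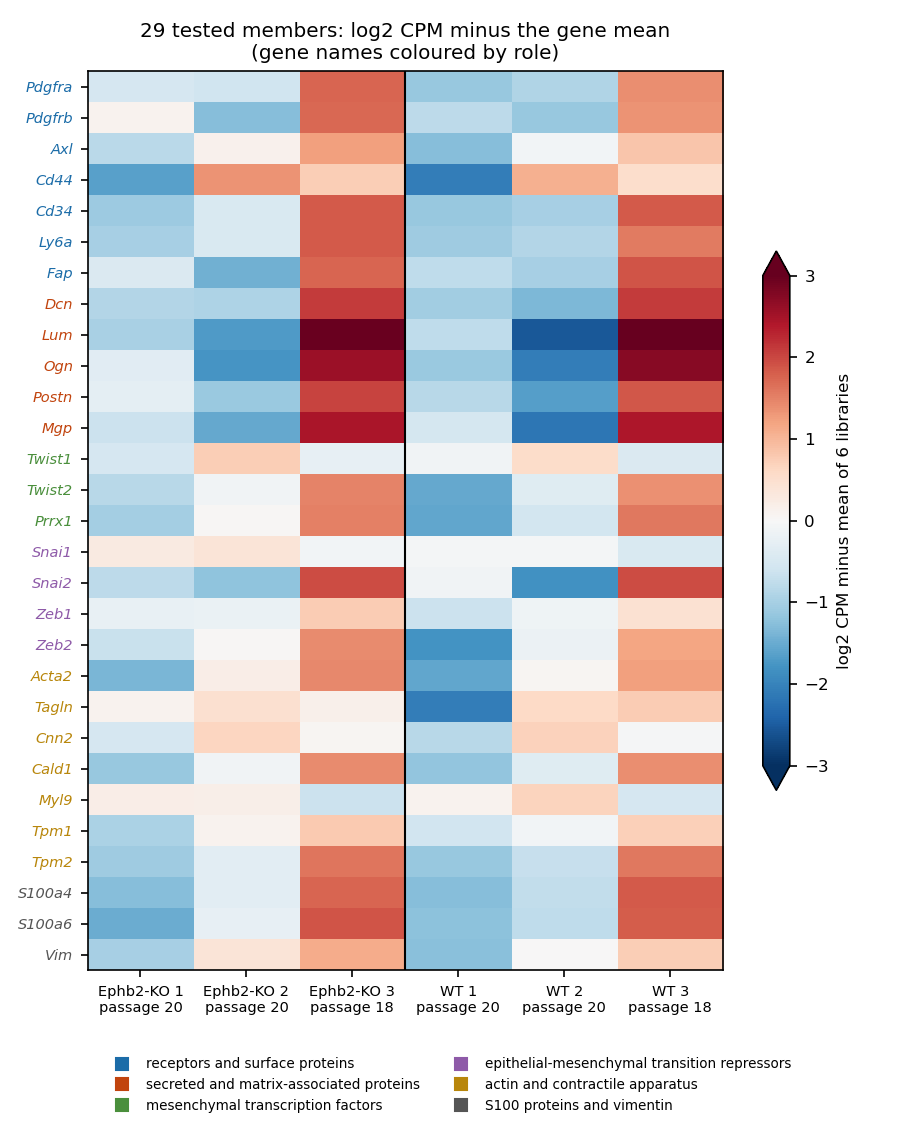
Each cell is the log2 CPM of a tested member minus the mean of that gene over the 6 libraries, with libraries labelled Ephb2-KO left of WT and gene names coloured by role. Red is above the gene's own mean. For 23 members the third and sixth columns, at passage 18, both lie above every passage 20 library, which is not so for Cd44, Twist1, Snai1, Tagln, Cnn2 and Myl9.

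The secreted and matrix-associated proteins differed most: all 5 rose at passage 18. Dcn encodes decorin, a small proteoglycan that binds collagen fibrils. It stood at 2346 and 2342 CPM in the passage 18 libraries labelled Ephb2-KO and WT, against 295 and 289 CPM in the passage 20 libraries labelled Ephb2-KO and 267 and 213 CPM in the passage 20 WT libraries. Its level at passage 18 was 8.86 times that at passage 20 (95% interval 6.71 to 11.7; log2 fold change 3.15, SE 0.17, adjusted p = 0.000192). Lum, encoding the related proteoglycan lumican, stood at 159.7 and 164 CPM in the passage 18 libraries labelled Ephb2-KO and WT, against 10.4 and 6.25 CPM in the passage 20 libraries labelled Ephb2-KO and 11.9 and 3.49 CPM in the passage 20 WT libraries. Lum had the highest fold of all members, 20.1 (95% interval 9.97 to 40.3; log2 fold change 4.33, SE 0.43, adjusted p = 0.000854). Dcn and Lum are neighbours on chromosome 10, where Dcn runs from 97479500 to 97518162 and Lum from 97565501 to 97572703 in GRCm38, with 0 annotated genes lying wholly between them.

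Ogn, encoding the proteoglycan osteoglycin, stood at 109 and 122 CPM at passage 18 (Ephb2-KO, then WT), against 14.6 and 5.40 CPM (Ephb2-KO) and 8.59 and 4.39 CPM (WT) at passage 20, and rose (log2 fold change 3.85, SE 0.42, adjusted p = 0.00121). Mgp encodes matrix Gla protein, an inhibitor of calcification, and stood at 418 and 411 CPM at passage 18 (Ephb2-KO, then WT), against 49.1 and 26.4 CPM (Ephb2-KO) and 53.5 and 17.1 CPM (WT) at passage 20 (log2 fold change 3.50, SE 0.42, adjusted p = 0.00189). Postn, encoding periostin, a matrix protein of fibroblasts under load or repair, stood at 869 and 778 CPM at passage 18 (Ephb2-KO, then WT), against 174 and 98.3 CPM (Ephb2-KO) and 121 and 68.3 CPM (WT) at passage 20 (log2 fold change 2.86, SE 0.29, adjusted p = 0.000854). In each of these 5 genes the lowest passage 18 library was above the highest passage 20 library. Without the WT passage 18 library the calls of Ogn and Mgp were lost, and without the one labelled Ephb2-KO that of Mgp.

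Of the 7 receptors and surface proteins, 6 rose at passage 18 and Cd44 did not pass. Pdgfra and Pdgfrb encode the receptors through which PDGF drives mesenchymal cell growth. Pdgfra stood at 212 and 165 CPM in the passage 18 libraries labelled Ephb2-KO and WT, against 44.6 and 42.1 CPM in the passage 20 libraries labelled Ephb2-KO and 28.98 and 33.8 CPM in the passage 20 WT libraries (log2 fold change 2.34, SE 0.14, adjusted p = 0.000192). Pdgfrb stood at 151 and 116 CPM at passage 18 (Ephb2-KO, then WT), against 49.2 and 18.8 CPM (Ephb2-KO) and 26.6 and 20.7 CPM (WT) at passage 20 (log2 fold change 2.22, SE 0.33, adjusted p = 0.00398). Ly6a, also called Sca-1, is a membrane-anchored antigen of mesenchymal and blood progenitors, and stood at 501 and 409.6 CPM at passage 18 (Ephb2-KO, then WT), against 70.0 and 102 CPM (Ephb2-KO) and 67.1 and 76.3 CPM (WT) at passage 20 (log2 fold change 2.53, SE 0.18, adjusted p = 0.000256). Cd34, a sialomucin of stromal, endothelial and blood progenitors, stood at 374 and 375 CPM at passage 18 (Ephb2-KO, then WT), against 48.8 and 75.4 CPM (Ephb2-KO) and 47.7 and 52.5 CPM (WT) at passage 20 (log2 fold change 2.75, SE 0.19, adjusted p = 0.000256). For these 4 genes the passage 18 values of both genotypes lay above all passage 20 values.

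Axl, a receptor tyrosine kinase for the ligand Gas6, stood at 365 and 277 CPM at passage 18 (Ephb2-KO, then WT), against 89.3 and 173 CPM (Ephb2-KO) and 64.1 and 148 CPM (WT) at passage 20 (log2 fold change 1.43, SE 0.35, adjusted p = 0.0250). Fap encodes a surface protease of activated fibroblasts and was low throughout, at 5.79 and 6.35 CPM at passage 18 (Ephb2-KO, then WT), against 1.27 and 0.630 CPM (Ephb2-KO) and 1.02 and 0.862 CPM (WT) at passage 20 (log2 fold change 2.67, SE 0.40, adjusted p = 0.00396). Cd44, the hyaluronan receptor, followed the replicate number in another way and was highest at number 2. It stood at 78.2 and 67.9 CPM in the passage 18 libraries labelled Ephb2-KO and WT, against 15.2 and 119.6 CPM in the passage 20 libraries labelled Ephb2-KO and 11.2 and 97.9 CPM in the passage 20 WT libraries (log2 fold change 0.27, SE 0.94, adjusted p = 0.859). Number 2 lay above number 1 for Cd44 by a factor of 7.88 in lines labelled Ephb2-KO and 8.75 in WT lines. A fit with numbers 1 and 2 kept apart, added after the values were seen, set number 3 against their mean on the log scale. Its p measures only the spread between same-numbered libraries, and not the spread between replicate numbers. That fit called 7323 of 15263 tested genes and 27 of 29 tested members, 24 of them higher and 3 lower. Cd44 was among those called, at 0.96 (SE 0.12, edgeR adjusted p = 0.000105). In CPM, Cd44 at number 3 was 1.16 times the mean of numbers 1 and 2 in lines labelled Ephb2-KO and 1.25 times in WT lines. Number 3 lay below number 2 in both genotypes. The calls of Pdgfrb, Axl and Fap were lost when either passage 18 library was left out.

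Ligands of the PDGF receptors did not move together. Of 4 ligand genes tested, 2 rose and 1 fell at passage 18, beside 15.4% and 10.4% of all tested genes. Pdgfc and Pdgfd rose. Pdgfb, the highest by CPM, fell (log2 fold change -1.36, SE 0.30, adjusted p = 0.0168), and stood at 39.8 and 33.3 CPM at passage 18 (Ephb2-KO, then WT), against 78.3 and 119 CPM (Ephb2-KO) and 60.9 and 116 CPM (WT) at passage 20. Pdgfa stood at 34.9 and 32.9 CPM at passage 18 (Ephb2-KO, then WT), against 31.3 and 24.5 CPM (Ephb2-KO) and 23.0 and 22.0 CPM (WT) at passage 20 and did not pass (log2 fold change 0.44, SE 0.19, adjusted p = 0.132). The ligand sum was 103 to 113 CPM at passage 18, against 90.2 to 156 CPM at passage 20, so the ranges overlapped where those of the receptors did not.

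Among transcription factors, members of the same family differed. Prrx1, a homeobox factor of limb and connective tissue mesenchyme, stood at 157 and 165 CPM at passage 18 (Ephb2-KO, then WT), against 27.1 and 56.0 CPM (Ephb2-KO) and 18.5 and 37.8 CPM (WT) at passage 20 and rose (log2 fold change 2.24, SE 0.36, adjusted p = 0.00548). Twist2, a basic helix-loop-helix repressor of mesenchyme, was low at 16.1 and 14.6 CPM at passage 18 (Ephb2-KO, then WT), against 3.18 and 5.31 CPM (Ephb2-KO) and 1.95 and 4.43 CPM (WT) at passage 20 and rose (log2 fold change 2.07, SE 0.39, adjusted p = 0.00947). Its paralogue Twist1 stood at 45.2 and 39.4 CPM in the passage 18 libraries labelled Ephb2-KO and WT, against 37.7 and 88.7 CPM in the passage 20 libraries labelled Ephb2-KO and 50.1 and 78.9 CPM in the passage 20 WT libraries and did not pass (log2 fold change -0.59, SE 0.35, adjusted p = 0.250). The Twist1 ranges overlapped, and number 2 was highest in both genotypes.

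Snai1, Snai2, Zeb1 and Zeb2 encode zinc finger repressors that silence epithelial genes such as Cdh1 during epithelial-mesenchymal transition. Snai2 (Slug) stood at 24.1 and 24.1 CPM in the passage 18 libraries labelled Ephb2-KO and WT, against 3.63 and 2.70 CPM in the passage 20 libraries labelled Ephb2-KO and 5.83 and 1.76 CPM in the passage 20 WT libraries and rose (log2 fold change 2.79, SE 0.43, adjusted p = 0.00473). Snai1 (Snail) stood at 24.3 and 18.9 CPM in the passage 18 libraries labelled Ephb2-KO and WT, against 30.997 and 34.1 CPM in the passage 20 libraries labelled Ephb2-KO and 24.7 and 25.0 CPM in the passage 20 WT libraries. Both passage 18 values of Snai1 lay below the 4 others, without passing (log2 fold change -0.41, SE 0.18, adjusted p = 0.137). Zeb1 stood at 103 and 83.6 CPM at passage 18 (Ephb2-KO, then WT), against 52.3 and 53.9 CPM (Ephb2-KO) and 39.4 and 55.8 CPM (WT) at passage 20 and rose by a smaller factor (log2 fold change 0.89, SE 0.17, adjusted p = 0.0111), and Zeb2 stood at 37.2 and 31.5 CPM at passage 18 (Ephb2-KO, then WT), against 8.84 and 14.3 CPM (Ephb2-KO) and 4.04 and 12.3 CPM (WT) at passage 20 and rose (log2 fold change 1.82, SE 0.42, adjusted p = 0.0189). With numbers 1 and 2 kept apart, Twist1 had -0.52 (SE 0.16, adjusted p = 0.0186) and Snai1 -0.41 (SE 0.15, adjusted p = 0.0437), both lower. The p of that fit measures only the spread between same-numbered libraries, and the fit called 7323 of 15263 tested genes. Twist1 passed as lower in 3 of the 13 settings run, and Snai1 in that fit alone. Prrx1, Twist2, Snai2, Zeb1 and Zeb2 lost their calls when either passage 18 library was left out.

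Per length of transcript, 4 of 6 paralogue ratios stood apart between the passages. By level, 26.9% of all tested genes lay higher in both passage 18 libraries than in all passage 20 libraries, and 26.6% lay lower. No such share was computed for ratios of other gene pairs, and these ratios come from the levels given above. Twist1 over Twist2 was 5.52 and 5.29 in the passage 18 libraries labelled Ephb2-KO and WT, against 23.3 and 32.8 in the passage 20 libraries labelled Ephb2-KO and 50.4 and 35.04 in the passage 20 WT libraries. Snai1 over Snai2 was 1.27 and 0.981 in the passage 18 libraries labelled Ephb2-KO and WT, against 10.7 and 15.8 in the passage 20 libraries labelled Ephb2-KO and 5.32 and 17.8 in the passage 20 WT libraries, so the paralogues stood near equal levels per length in the passage 18 libraries. Zeb1 over Zeb2 was 5.40 and 5.17 in the passage 18 libraries labelled Ephb2-KO and WT, against 11.5 and 7.35 in the passage 20 libraries labelled Ephb2-KO and 19.0 and 8.83 in the passage 20 WT libraries. The tropomyosins Tpm1 over Tpm2 stood in a ratio of 1.15 and 1.14 in the passage 18 libraries labelled Ephb2-KO and WT, against 2.23 and 2.73 in the passage 20 libraries labelled Ephb2-KO and 3.03 and 3.11 in the passage 20 WT libraries. S100a6 over S100a4, by contrast, stood at 2.35 and 2.12 in the passage 18 libraries labelled Ephb2-KO and WT, against 1.84 and 2.25 in the passage 20 libraries labelled Ephb2-KO and 2.19 and 2.10 in the passage 20 WT libraries, a ratio of 1.84 to 2.35 in all 6 libraries. Pdgfra over Pdgfrb ranged from 0.738 to 1.82, and its passage 18 values of 1.14 and 1.16 lay inside that range. No test was run on these ratios.

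**Figure D3:**
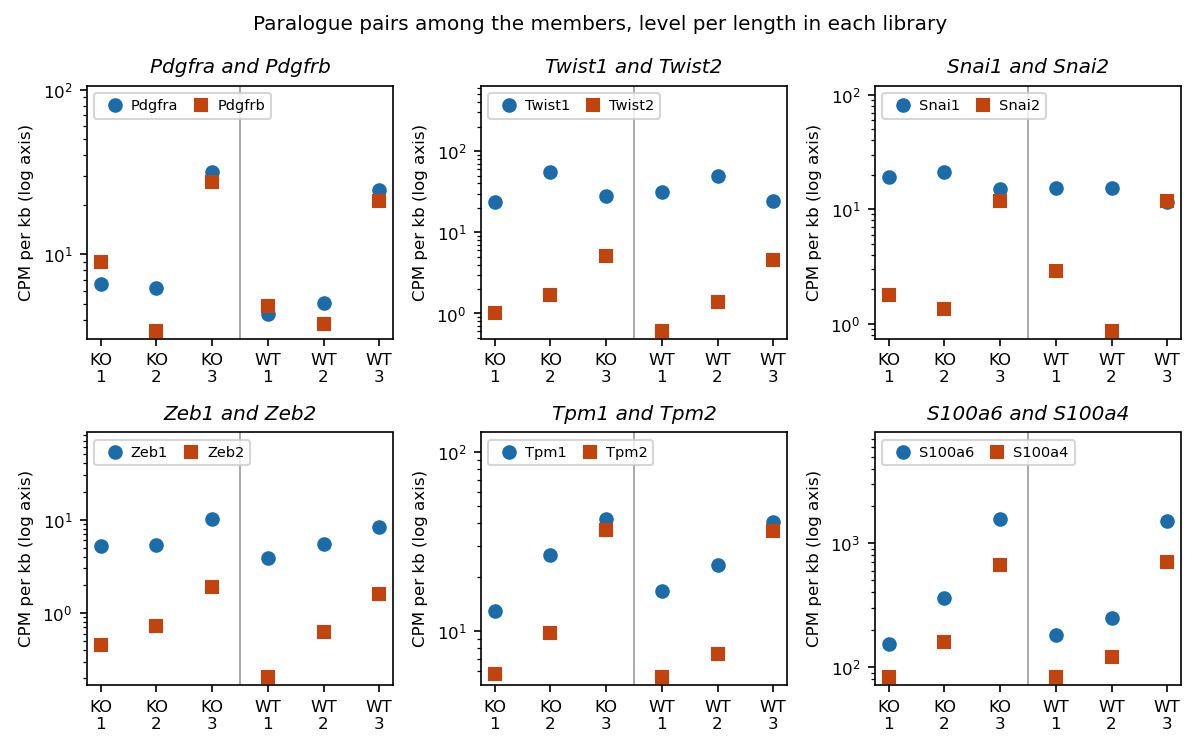
Points give the level per length (CPM per kb, log axis) of 6 paralogue pairs in each library, with libraries labelled Ephb2-KO left of the grey line and WT right of it. Snai2, Twist2 and Tpm2 lie nearer to their paralogue in the libraries numbered 3, while S100a6 stays between 1.84 and 2.35 times S100a4 throughout.

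Of the contractile and actin-binding members, 4 of 7 tested rose at passage 18, and Tagln, Cnn2 and Myl9 did not pass. Cald1 encodes caldesmon, an actin-binding regulator of contraction, and stood at 474 and 466 CPM in the passage 18 libraries labelled Ephb2-KO and WT, against 81.0 and 165 CPM in the passage 20 libraries labelled Ephb2-KO and 77.9 and 137 CPM in the passage 20 WT libraries (log2 fold change 2.03, SE 0.31, adjusted p = 0.00431). Tpm2, encoding beta-tropomyosin, stood at 107 and 105 CPM at passage 18 (Ephb2-KO, then WT), against 16.9 and 28.3 CPM (Ephb2-KO) and 16.1 and 21.8 CPM (WT) at passage 20 (log2 fold change 2.36, SE 0.23, adjusted p = 0.000771). Tpm1, encoding alpha-tropomyosin, stood at 275 and 265 CPM at passage 18 (Ephb2-KO, then WT), against 84.0 and 172 CPM (Ephb2-KO) and 109 and 151 CPM (WT) at passage 20 (log2 fold change 1.07, SE 0.28, adjusted p = 0.0286). Acta2, the alpha actin of smooth muscle and myofibroblasts, stood at 35.7 and 30.6 CPM in the passage 18 libraries labelled Ephb2-KO and WT, against 5.10 and 15.0 CPM in the passage 20 libraries labelled Ephb2-KO and 4.41 and 13.7 CPM in the passage 20 WT libraries. Acta2 rose by a factor of 3.48 (95% interval 1.52 to 7.95; log2 fold change 1.80, SE 0.51, adjusted p = 0.0390), and its call was lost when either passage 18 library, or replicate 1 labelled Ephb2-KO, was left out. Leaving out either passage 18 library also ended the calls of Cald1 and Tpm1, and leaving out WT replicate 1 that of Tpm1.

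Tagln encodes transgelin (SM22), an actin-bundling protein of smooth muscle, and stood at 5.25 and 8.04 CPM at passage 18 (Ephb2-KO, then WT), against 5.07 and 6.66 CPM (Ephb2-KO) and 1.12 and 7.13 CPM (WT) at passage 20, with overlapping ranges (log2 fold change 0.45, SE 0.66, adjusted p = 0.660). Cnn2, the calponin found in many non-muscle cells, stood at 86.5 and 81.3 CPM in the passage 18 libraries labelled Ephb2-KO and WT, against 58.5 and 131 CPM in the passage 20 libraries labelled Ephb2-KO and 47.2 and 134 CPM in the passage 20 WT libraries. Cnn2 was highest at number 2 and did not pass (log2 fold change -0.14, SE 0.45, adjusted p = 0.841). Myl9, a regulatory light chain of non-muscle and smooth muscle myosin, stood at 4.22 and 4.70 CPM in the passage 18 libraries labelled Ephb2-KO and WT, against 7.60 and 7.42 CPM in the passage 20 libraries labelled Ephb2-KO and 7.14 and 10.6 CPM in the passage 20 WT libraries. Both passage 18 values of Myl9 were below the rest, without passing (log2 fold change -0.87, SE 0.31, adjusted p = 0.0735). Myl9 was lower and passed with numbers 1 and 2 kept apart at -0.87 (SE 0.24, adjusted p = 0.0115), by the spread between same-numbered libraries only. That fit called 7323 of 15263 tested genes. Myl9 passed as lower in 3 of the 13 settings run. Cnn1 was at or near 0, as given above.

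The promoter windows of the contractile genes are shown because Cnn2 and Myl9 were the only members with an exact CArG box among those searched. The CArG box is the motif bound by serum response factor (SRF). Cnn2 and Myl9 did not rise at passage 18, and neither did Cd44, Twist1, Snai1, Tagln and Vim. A link between the box and the passage values was not tested. Windows of 250 bases before the RefSeq transcription start (GRCm38.p6) were given for 22 of the 31 members, and the CArG box was searched on both strands, on which its consensus reads alike. It was found in 2 of these 22 members, which had 27 windows in all, beside 1.47% of 32851 windows of all genes. The members are counted by gene and the background by window, so the figures are not on the same scale. The E-box CANNTG, likewise the same on both strands, was found in 10 of the 22 members, again by gene, beside 66.2% of all windows. The windows are written 5′ to 3′ on the gene's strand, at chr10:79988350-79988599 on the plus strand for Cnn2, chr2:156775214-156775463 on the plus strand for Myl9 and chr19:34255374-34255623 on the minus strand for Acta2. Capitals mark the CArG box in Cnn2 and Myl9, and the 3 E-boxes in Acta2, whose window had no exact CArG box. The search took exact matches only and so left out near matches. The Acta2 window holds such near matches, ccctatatgg and ccttgtttgg, which are not marked. The absence of an exact box therefore does not set Acta2 apart from Cnn2 and Myl9 as a gene without SRF sites.
Cnn2: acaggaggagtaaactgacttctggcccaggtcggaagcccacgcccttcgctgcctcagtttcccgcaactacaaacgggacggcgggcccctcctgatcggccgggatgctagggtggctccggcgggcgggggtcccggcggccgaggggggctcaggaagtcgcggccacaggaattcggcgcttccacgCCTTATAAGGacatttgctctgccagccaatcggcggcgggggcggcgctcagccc
Myl9: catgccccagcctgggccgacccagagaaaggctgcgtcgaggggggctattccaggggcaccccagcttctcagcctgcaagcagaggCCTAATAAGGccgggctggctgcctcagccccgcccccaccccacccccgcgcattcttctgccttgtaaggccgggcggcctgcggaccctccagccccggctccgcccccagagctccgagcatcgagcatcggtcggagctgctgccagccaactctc
Acta2: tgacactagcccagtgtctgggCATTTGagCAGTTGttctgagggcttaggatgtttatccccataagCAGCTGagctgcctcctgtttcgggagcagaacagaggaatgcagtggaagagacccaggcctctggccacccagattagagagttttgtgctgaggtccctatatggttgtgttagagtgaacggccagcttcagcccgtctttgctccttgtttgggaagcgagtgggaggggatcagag
The box lay 47 to 56 bases before the start in Cnn2 and 152 to 161 bases before it in Myl9. These matches are descriptions of the letters and not of binding. Of 23 tested genes around SRF and the actin cytoskeleton, 5 rose and 3 fell at passage 18, beside 15.4% and 10.4% of all tested genes, so these counts are near the background. Actb, cytoplasmic beta-actin, stood at 1704 and 1525 CPM at passage 18 (Ephb2-KO, then WT), against 1781 and 2603 CPM (Ephb2-KO) and 1537 and 2668 CPM (WT) at passage 20 (log2 fold change -0.41, SE 0.28, adjusted p = 0.307), and Cyr61, a secreted matricellular protein, at 733 and 707 CPM at passage 18 (Ephb2-KO, then WT), against 259 and 215 CPM (Ephb2-KO) and 212 and 186 CPM (WT) at passage 20 (log2 fold change 1.73, SE 0.15, adjusted p = 0.000544).

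S100a4 and S100a6 encode small calcium-binding proteins abundant in fibroblasts and many motile cells. S100a6 (calcyclin) stood at 1134 and 1082 CPM in the passage 18 libraries labelled Ephb2-KO and WT, against 109 and 259 CPM in the passage 20 libraries labelled Ephb2-KO and 130.2 and 179.9 CPM in the passage 20 WT libraries, and rose by a factor of 6.56 (log2 fold change 2.71, SE 0.32, adjusted p = 0.00142). S100a4 (FSP1) stood at 394 and 417 CPM in the passage 18 libraries labelled Ephb2-KO and WT, against 48.5 and 93.9 CPM in the passage 20 libraries labelled Ephb2-KO and 48.5 and 70.0 CPM in the passage 20 WT libraries, and rose by a factor of 6.26 (log2 fold change 2.65, SE 0.27, adjusted p = 0.000864). The call of S100a6 was lost without the WT passage 18 library. Both genes lie in the S100 cluster of chromosome 3, S100a4 from 90603770 to 90606045 and S100a6 from 90612894 to 90614414 in GRCm38, with 1 annotated gene between them. Vim encodes vimentin, the intermediate filament of mesenchymal cells that many cultured cell types also express. It stood at 1331 and 1024 CPM in the passage 18 libraries labelled Ephb2-KO and WT, against 311 and 807 CPM in the passage 20 libraries labelled Ephb2-KO and 258 and 622 CPM in the passage 20 WT libraries. Both passage 18 values of Vim were above the rest, but the gene did not pass (log2 fold change 1.24, SE 0.43, adjusted p = 0.0722). It passed in 5 of the 13 settings run, with adjusted p from 5.16e-08 to 0.377.

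**Figure D4:**
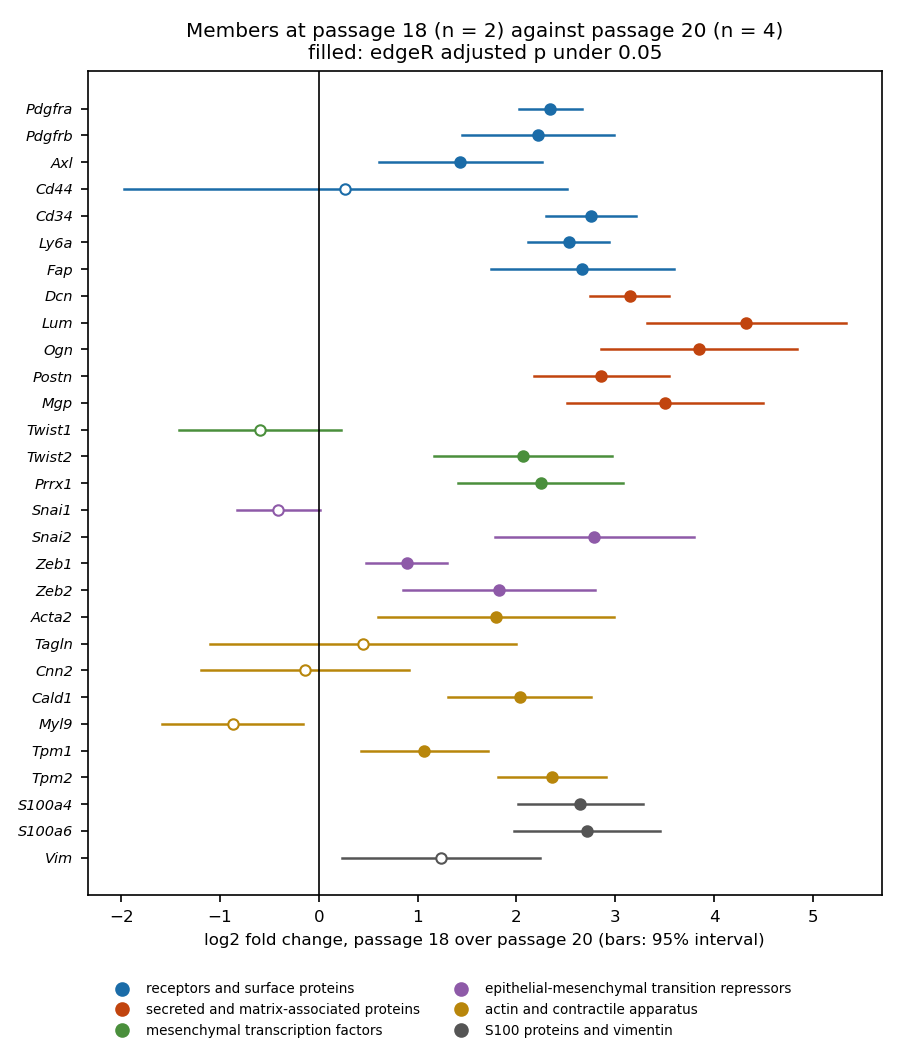
Points give the log2 fold change at passage 18 (2 libraries) over passage 20 (4 libraries) of each tested member, bars its 95% interval, and filled points an edgeR adjusted p under 0.05. The 22 filled points run from 0.89 for Zeb1 to 4.33 for Lum, and Twist1, Snai1, Cnn2 and Myl9 lie below 0.

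The passage 20 libraries differed among themselves by replicate number. Number 2 lay above number 1 in both genotypes for 19 of the 29 members and below it in both for 8, beside 33.1% and 35.4% of the 15192 tested genes with counts in every library. The 8 included all 5 secreted genes, with Pdgfrb, Fap and Snai2. For Lum the ratio of number 2 to number 1 was 0.6004 in lines labelled Ephb2-KO and 0.293 in WT lines, and for Postn it was 0.563 in lines labelled Ephb2-KO and 0.565 in WT lines. Higher at number 2 were Acta2, with 2.95 in lines labelled Ephb2-KO and 3.10 in WT lines, Vim, with 2.60 in lines labelled Ephb2-KO and 2.41 in WT lines, and Axl, with 1.93 in lines labelled Ephb2-KO and 2.31 in WT lines. These ratios come from 1 library each and were not tested.

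Markers of some other cells also differed between passages. Beside the calls given here, 15.4% of all tested genes were called higher and 10.4% lower. Of 15 further fibroblast matrix genes such as Col1a2 and Col3a1, 12 rose and 0 fell at passage 18, and their sum was 24688 to 30347 CPM there, against 4918 to 9533 CPM at passage 20. Col3a1, a fibrillar collagen, stood at 6469.8 and 5657 CPM at passage 18 (Ephb2-KO, then WT), against 1469 and 1296 CPM (Ephb2-KO) and 974 and 1099 CPM (WT) at passage 20. Of 17 tested germ cell markers 0 rose and 9 fell, and the 18 listed summed to 2346 to 2601 CPM at passage 18, against 3745 to 4602 CPM at passage 20. Dazl fell (log2 fold change -0.75, SE 0.19, adjusted p = 0.0249), as did Piwil2, a protein of the piRNA pathway (log2 fold change -0.97, SE 0.25, adjusted p = 0.0295). Of 9 tested epithelial genes 5 fell, with sums of 106 to 132 CPM against 182 to 351 CPM, and 1 was called between genotypes with the replicate block. Of 9 tested Sertoli cell markers 1 fell, near the share over all tested genes, with sums of 69.0 to 80.7 CPM against 87.1 to 108 CPM and Fshr at 0.

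Smooth muscle and peritubular myoid markers, 6 tested, had 0 calls, with sums of 59.2 to 79.9 CPM at passage 18 against 47.9 to 76.9 CPM at passage 20. Endothelial markers (6 tested) and leukocyte markers (4 tested) each had 1 gene higher, beside 15.4% of all tested genes. Endothelial sums were 9.19 to 14.2 CPM at passage 18 against 10.2 to 33.9 CPM at passage 20, and leukocyte sums 20.7 to 22.3 CPM against 20.4 to 30.0 CPM, with Fcgr1 at 0. The 7 Leydig cell markers summed to 1.11 to 1.82 CPM at passage 18 against 1.52 to 2.25 CPM, with Hsd3b1 and Lhcgr at 0. Of 16 TGF-beta pathway genes, 6 rose and 2 fell, beside 15.4% and 10.4% of all tested genes. The part of these other cell types, or of passage itself, in the values of the stromal markers was not tested.

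Between the genotypes, the study's main contrast, 0 of 29 tested stromal markers passed. In the fit without a block, log2 fold changes of the 29 tested members ran from -0.22 to 0.42 with SE from 0.25 to 1.59, and 0 members passed (smallest unadjusted p = 0.176). That fit called 0% of all tested genes, and 0 members had an unadjusted p under 0.05; DESeq2 called 4 genes and 0 members. The groups overlapped in CPM for all 29 members. Same-numbered libraries deviated together by the correlation of their deviations, and the median SE of the members was 0.89 without the replicate number as a block and 0.14 with it.

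With the replicate block 4 genes were called, 0.0262% of those tested, and 0 of them were members, whose smallest adjusted p was 0.741. Log2 fold changes in that fit ran from -0.19 for Myl9 to 0.51 for Zeb2, with 24 members above 0 and 5 below and a median of 0.19, beside 0.02 and 53.0% above 0 over all tested genes. For 28 of the 29 members the 95% interval of the fold lay within 2-fold in either direction, and Tagln was the exception. An unadjusted p under 0.05 was reached by 8 members, all higher, beside 6.47% of all tested genes. Pdgfra had 0.43 (SE 0.12, unadjusted p = 0.00395), with log2 ratios of 0.62, 0.32 and 0.36 in pairs 1, 2 and 3. Postn had 0.40 (SE 0.12, unadjusted p = 0.00746), with ratios of 0.53, 0.52 and 0.16, and Axl had 0.37 (SE 0.11, unadjusted p = 0.00861), with 0.48, 0.22 and 0.40. Vim had 0.34 (SE 0.11, unadjusted p = 0.0122), with 0.27, 0.38 and 0.38, Snai1 0.38 (SE 0.14, unadjusted p = 0.0200), with 0.32, 0.45 and 0.37, and Cd44 0.31 (SE 0.12, unadjusted p = 0.0267), with 0.44, 0.29 and 0.20. Zeb2 had 0.51 (SE 0.20, unadjusted p = 0.0294), with 1.13, 0.21 and 0.24, and Prrx1, the exception among the 8 in not being higher in every pair, had 0.34 (SE 0.15, unadjusted p = 0.0392), with 0.55, 0.57 and -0.07.

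**Figure D5:**
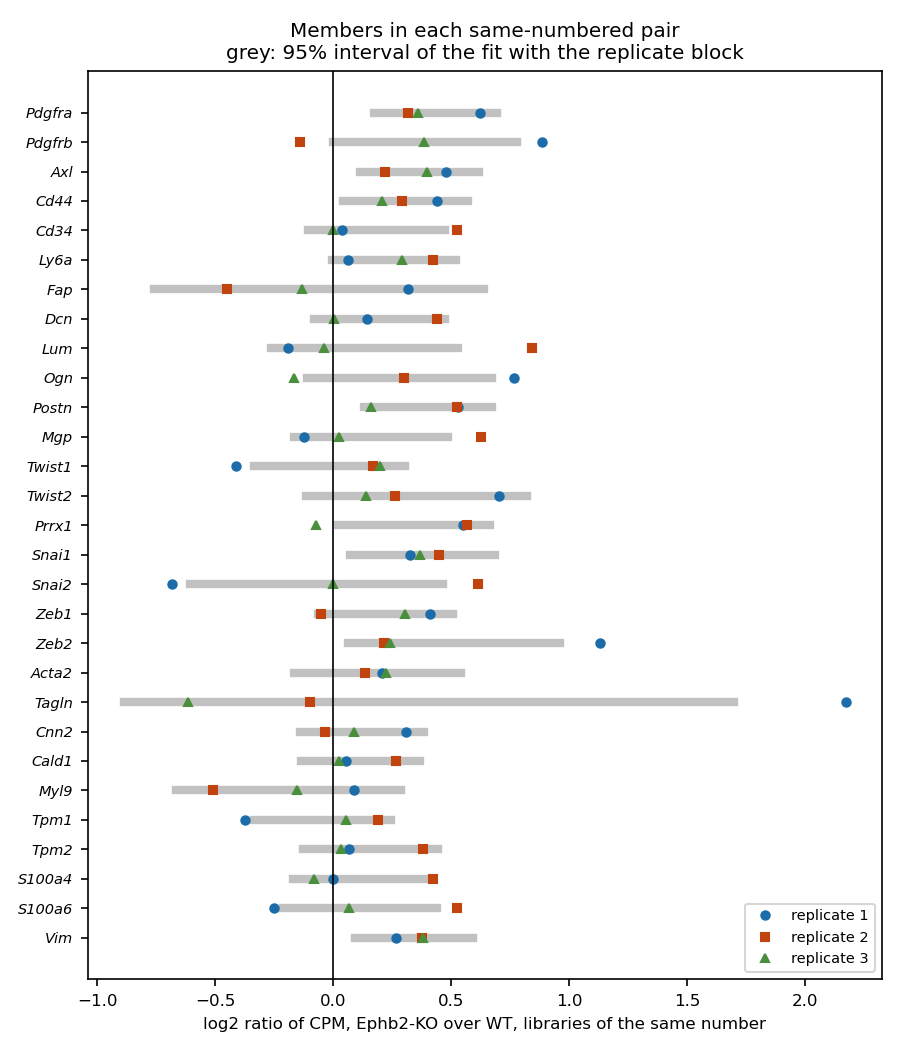
Points give the log2 ratio of CPM, the library labelled Ephb2-KO over the WT library of the same number, for each tested member, and grey bars the 95% interval of the fit with the replicate block. Of the 29 members 13 lie right of 0 in all 3 pairs and 0 lie left of it in all 3.

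In all, 13 of the 29 members were higher in 3 of 3 pairs and 0 were lower in 3 of 3, beside 15.6% and 12.4% of all tested genes. Medians over the members were 0.27, 0.30 and 0.07 in pairs 1, 2 and 3, and over all tested genes -0.00053, 0.0024 and 0.06. The share of reads in the 31 genes was 1.10, 1.24 and 1.04 times as high in the library labelled Ephb2-KO of pairs 1, 2 and 3. Mitochondrially encoded transcripts moved the same way, at 1.52%, 1.93% and 0.902% of reads in libraries labelled Ephb2-KO 1, 2 and 3 and 0.849%, 1.396% and 0.735% in WT libraries 1, 2 and 3, and their part in the member values was not tested. A test of whether the genotype difference differed between passages (edgeR interaction term) called 0% of tested genes (20 at an unadjusted p under 0.05) and 0 members, with 1 pair at passage 18.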

How the data were processed

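Polyadenylated RNA of 6 lines was sequenced with a strand-keeping kit, per the labels' protocols. The deposited table of each library holds whole, unnormalized counts by gene name. Per the file headers, the authors counted them with featureCounts 1.4.6-p4 (strand setting 2) over GENCODE vM3 exons, with only the strand, gene name, annotation and output options set, under which reads that overlap several genes, or that align in several places, are left uncounted by default. Per the submitters' processing notes STAR, FastQC and GRCm38.p3 were used; their versions are not given here. Exon length per gene, a deposited value, gave CPM per kb. Among members, Pdgfra and Zeb2 overlap a microRNA gene by 30 and 5 exon bases on the same strand. The files held 0 columns of another series.

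Counts were fitted for all genes kept by filterByExpr (15263) in edgeR 4.0.16 (R 4.3.3) with TMM scaling and the robust quasi-likelihood test, genotype alone, or genotype and passage, with Benjamini-Hochberg adjustment over all tested genes. The replicate number as a block, DESeq2 1.42.0, its size factors (RLE), other filters and leaving out each library were alternatives. Standard errors are the log2 fold change over the root of F. Pairing was checked by correlating deviations from group means: 0.596, 0.736 and 0.850 for numbers 1, 2 and 3, against at most 0.0790 otherwise, so the numbers, shared in the sample titles, pair the libraries. No pair of libraries was a duplicate (chi-square per degree of freedom 20.5 to 284). The fits were run on simulated data whose spread was that of the fit with the replicate block. That spread is smaller than in the fits without the block, so the simulation does not gauge what those fits can detect. Values in every library are given for members with a mean of at least 1 CPM; from each other list the 2 genes highest in CPM could be named. The members and lists were chosen with earlier results of these data known. Interaction between genotype and passage was the test for effects that differ between passages. Figures used matplotlib 3.10.9.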

Additional observations from a re-analysis of the deposited data

How the results depend on the processing

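At passage 18 against passage 20, scaling by RLE, other filters, DESeq2 or dropping the genotype term left the number of members called between 22 and 24 and the median log2 fold change of members between 2.12 and 2.23. These totals include 1 lower call in some fits. It was Twist1 with no filter (-0.63, edgeR adjusted p = 0.0235). It was Myl9 in DESeq2 (-0.87, adjusted p = 0.0237) and in edgeR without the genotype term (-0.87, adjusted p = 0.0482). Leaving out replicate 1 labelled Ephb2-KO also called Twist1 lower (-0.83, edgeR adjusted p = 0.0463). Keeping numbers 1 and 2 apart called 7323 genes and 27 members. This fit and DESeq2 with the replicate block were chosen after seeing the data. Leaving out 1 library gave 284 to 4187 genes called, 8 to 23 members called and a median of 1.95 to 2.34; the counts of 284 and 325 genes come from fits with 1 library at passage 18, which is then assumed to vary like the others. The 3 members that changed direction had not passed: Cd44 (-0.10 to 1.27 with a library left out), Tagln (-0.15 to 1.16) and Cnn2 (-0.39 to 0.26, and 0.0035 with numbers 1 and 2 apart).

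Between genotypes, the replicate block gave 4 genes called, and 56, 3 and 4 without the libraries of replicate 1, 2 and 3; edgeR without the block called 0, DESeq2 without it 4 and DESeq2 with it 19. Members called stayed at 0 in all of these. The median log2 fold change of members was 0.10 in the fit without the block and 0.19 in the blocked fit. It was 0.28 in the blocked fit without replicate 3, which holds no passage 18 library. With 1 library left out and no block this median ran from -0.81 to 1.41, and each such fit leaves unequal shares of passage 18 libraries in the groups. The unblocked log2 fold change with a library left out ran from -0.81 to 1.67 for Pdgfra, -0.32 to 0.98 for Axl, -0.34 to 0.85 for Cd44, -1.24 to 2.01 for Postn, -0.83 to 1.51 for Prrx1, -0.46 to 1.30 for Zeb2 and -0.18 to 0.89 for Vim. The interaction test called 7 genes and 0 members with no filter. Without Dcn, the passage 18 share of reads in the members exceeded that at passage 20 by 0.492 percentage points, against 0.688 with it. Counting error limits Cnn1 and Tcf21, at or near 0.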
